A study of Mus musculus with 22 samples.

Results

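Chemokines are small secreted proteins that guide leukocytes by binding receptors on the cell surface. The 8 genes described here are CXC and CX3C chemokines outside the interferon-driven ligands of CXCR3: Cxcl1, Cxcl2, Cxcl5, Cxcl12, Cxcl13, Cxcl14, Cxcl16 and Cx3cl1. They were taken by symbol from the platform annotation, from probe sets that list a single symbol, and each had 1 probe set, so they are 8 of the 19935 genes measured. Cxcl1, Cxcl2 and Cxcl5 attract neutrophils through the receptor Cxcr2 and are induced in inflamed tissue by NF-kB, the transcription factor that LPS and interleukin-1 activate. Cxcl12, Cxcl13 and Cxcl14 are made in the absence of inflammation and are called homeostatic: Cxcl12 retains and positions cells through Cxcr4 and is made in the brain by vascular and other cells, Cxcl13 attracts B cells through Cxcr5, and Cxcl14 is made in epithelia and some neurons. Cxcl16 and Cx3cl1 are anchored in the cell membrane by a stalk and can be released by proteases; in the brain, neurons make Cx3cl1 and microglia carry its receptor Cx3cr1.

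The values come from Affymetrix arrays of mouse hypothalamus, the region that sets body temperature. All animals were male C57bl6 mice of 9 to 12 weeks, housed singly. Those labelled IL-6 KO are deficient in interleukin-6 (how the allele was made is not given in the labels) and those labelled WT are their wild-type littermates. They were killed 3 h after an intraperitoneal injection of lipopolysaccharide from Escherichia coli (LPS, a bacterial cell wall component that causes fever). The LPS dose was 120 µg/kg, controls received saline, and the vessels were flushed with saline before dissection. The groups are 7 arrays from IL-6 KO mice after LPS (KO LPS), 7 from WT mice after LPS (WT LPS), 4 from IL-6 KO mice after saline (KO saline) and 4 from WT mice after saline (WT saline), and the design text asks which genes differ between the genotypes after LPS. Nothing in the labels ties each array to its own mouse; the p-values therefore reflect array-to-array spread, which may be technical.

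Every probe set had been centred on its median over the 22 arrays, so a value is a log2 difference from the median array; no gene has a level, and the presence of hypothalamic markers could not be checked. Il6 itself averaged 0.24 ± 0.20 in KO LPS, 0.072 ± 0.14 in WT LPS, -0.12 ± 0.037 in KO saline and -0.14 ± 0.035 in WT saline (SD), and the difference between KO LPS and WT LPS was not called (0.17, SE 0.07, adjusted p = 0.397, limma); which part of the gene the KO lacks is not given, so its probe set does not check the labels, and KO and WT below mean the labelled genotype. The arrays carry numbers 1 to 22 in their titles, and with group in the fit 4286 genes were called between the lower numbers (1 to 11) and the upper numbers (12 to 22); these 2 blocks of arrays hold 2 and 5 KO LPS arrays, 5 and 2 WT LPS arrays, 1 and 3 KO saline arrays, and 3 and 1 WT saline arrays. KO LPS replicate 3 and KO saline replicate 2 stood high in Gh, a pituitary gene (3.76 and 3.96), and WT LPS replicate 5 and WT saline replicate 1 stood high in Ttr, a choroid plexus gene (2.80 and 4.62). The next highest were 2.20 for Gh in KO LPS replicate 5 and 2.43 for Ttr in WT LPS replicate 2. LPS effects of the members whose call changes without these 4 arrays or within a block of array numbers are given both ways.

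Promoter sequence is shown for the 3 members that passed the test of the LPS effect below. Whether promoter sequence bears on the direction of that effect was not tested. The RefSeq table of promoters (GRCm38.p6) held 6 of the 8 members. The lines give the 120 bases before the transcription start on the gene strand, with matches to the 10-base NF-kB consensus in capitals.
Cxcl1, chr5:90891125-90891244, plus strand: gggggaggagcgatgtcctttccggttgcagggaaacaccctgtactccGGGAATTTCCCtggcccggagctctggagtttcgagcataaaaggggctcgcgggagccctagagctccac
Cxcl2, chr5:90903779-90903898, plus strand: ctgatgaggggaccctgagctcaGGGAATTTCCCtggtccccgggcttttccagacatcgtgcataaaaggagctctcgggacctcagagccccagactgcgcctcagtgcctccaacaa
Cxcl12, chr6:117168415-117168534, plus strand: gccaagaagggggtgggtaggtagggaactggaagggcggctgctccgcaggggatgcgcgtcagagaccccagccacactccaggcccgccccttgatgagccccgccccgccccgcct
Cxcl1 and Cxcl2, both on chromosome 5, share the run GGGAATTTCCC, in which 2 matches to the consensus overlap. It ends 61 bases before the start of Cxcl1 and 87 bases before the start of Cxcl2. Over the 250 bases before the start, searched on both strands, the consensus was found in 2382 of 32851 promoters (7.25%), and it was not found in Cxcl12, Cxcl13, Cxcl14 or Cx3cl1. The STAT spacing motif TTCNNNGAA (7.02% of promoters, both strands) and the 10-base interferon regulatory factor repeat (2.98%, both strands) were each found in Cxcl14 only among the 6. The TATA box letters TATAAA (7.59%, gene strand) were found in Cxcl13, at 46 to 41 bases before the start, and in Cx3cl1, at 6 to 1. Cxcl1 and Cxcl2 hold the near match cataaa, which this search does not count. A match describes the letters and shows no binding.

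LPS raised Cxcl1 and Cxcl2 and lowered Cxcl12 when its effect was averaged over the genotypes, and each of these shifts was small. Cxcl1 was 1.23-fold and Cxcl2 1.25-fold higher, and Cxcl12 was at 0.768 of its saline value. The other 5 members did not pass the test. Thus 3 of 8 members were called at an adjusted p under 0.05, 2 higher and 1 lower, where 2.76% of all genes were called, 1.99% higher and 0.773% lower. The members' median difference was 0.12 on the log2 scale, 7 of 8 being positive, beside a median of -0.01 over all genes, of which 40.7% were positive. Within a genotype the test called 1 of 8 members in KO (1.34% of all genes, 1.08% higher and 0.256% lower) and 1 of 8 in WT (1.8% of all genes, 1.42% higher and 0.376% lower), and both times it was Cxcl12.

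**Figure D1:**
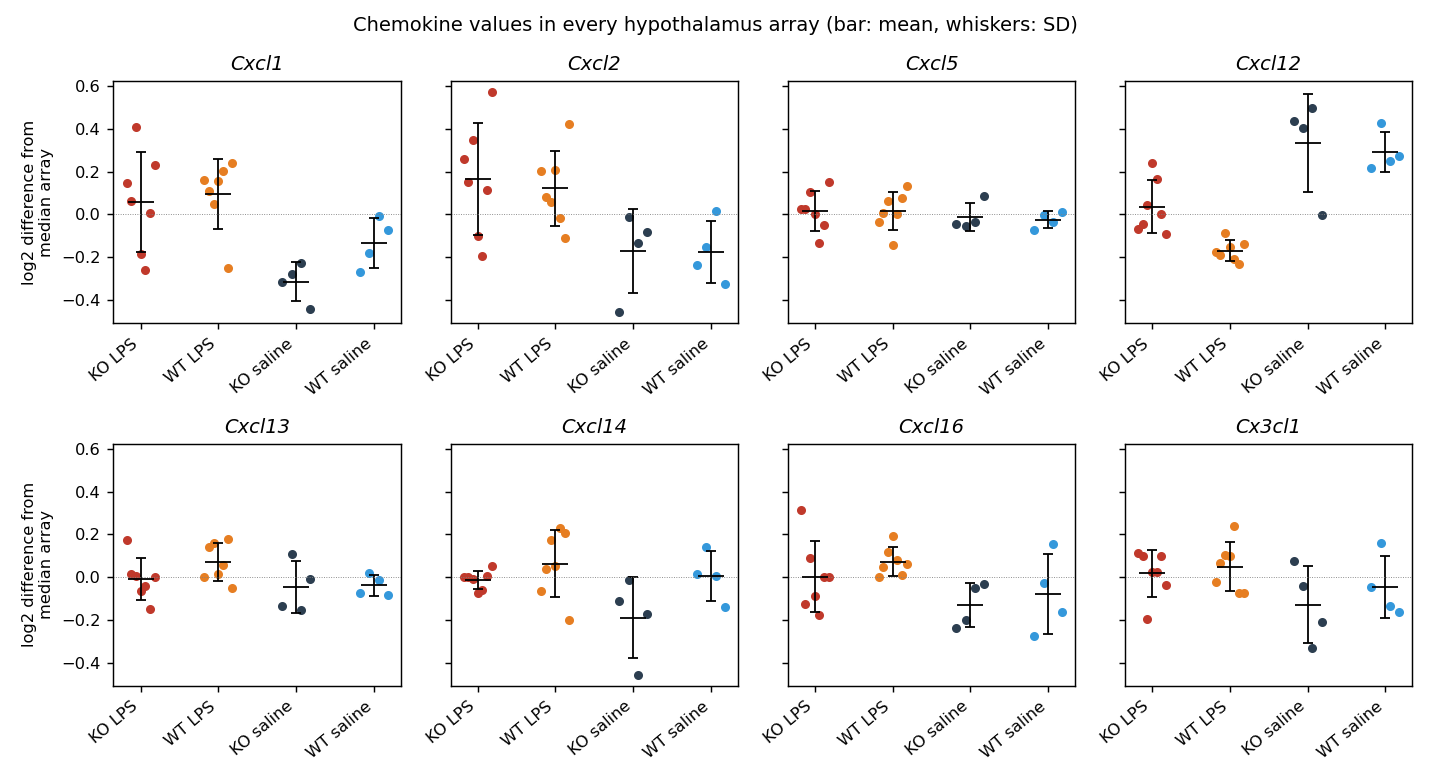
Each panel plots 1 chemokine; each point is 1 array's log2 difference from the median array, the bar is the group mean and the whiskers its SD (7 KO LPS, 7 WT LPS, 4 KO saline and 4 WT saline arrays). Cxcl12 is the member whose WT LPS arrays, -0.23 to -0.09, all lie below its WT saline arrays, 0.22 to 0.43, while Cxcl1 and Cxcl2 lie mostly higher after LPS with overlap.

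Among the neutrophil attractants, Cxcl1 had values of -0.26, 0.064 and 0.41 (lowest, median, highest) in KO LPS, against -0.32, -0.28, -0.23 and -0.44 in KO saline. In WT LPS it had -0.25, 0.15 and 0.24, against -0.27, -0.18, -0.0063 and -0.072 in WT saline. In each genotype 6 of 7 LPS arrays lay above the highest saline array and 1 array fell back among them. The LPS effect of Cxcl1 was 0.37 (SE 0.10, adjusted p = 0.0746, limma) in KO and 0.23 (SE 0.10, adjusted p = 0.647, limma) in WT, neither called, and 0.30 (SE 0.07, adjusted p = 0.0144, limma) averaged over both. The effect in KO passed without KO LPS replicate 4 (0.42), KO LPS replicate 5 (0.43) or WT LPS replicate 6 (0.37), with an adjusted p as low as 0.0157. The effect in WT passed within arrays 1 to 11 (0.29, adjusted p = 0.0320) and was 0.07 within arrays 12 to 22, where 1 WT saline array remains (adjusted p = 0.999). The averaged effect was 0.25 (adjusted p = 0.113) without the 4 arrays high in choroid plexus or pituitary genes, 0.35 (adjusted p = 0.00538) within arrays 1 to 11 and 0.21 (adjusted p = 0.83) within arrays 12 to 22.

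Cxcl2, like Cxcl1 a Cxcr2 ligand, had -0.19, 0.15 and 0.57 (lowest, median, highest) in KO LPS, against -0.46, -0.014, -0.14 and -0.082 in KO saline. In WT LPS it had -0.11, 0.084 and 0.42, against -0.24, -0.15, 0.014 and -0.33 in WT saline. In each genotype 5 of 7 LPS arrays lay above the highest saline array, so the groups overlapped more than for Cxcl1. The LPS effect was 0.34 (SE 0.12, adjusted p = 0.354, limma) in KO, 0.30 (SE 0.12, adjusted p = 0.478, limma) in WT and 0.32 (SE 0.08, adjusted p = 0.0348, limma) averaged. Within arrays 1 to 11, with 2 KO LPS arrays against 1 KO saline array, the effect in KO was 0.66 and passed (adjusted p = 0.0184), and within arrays 12 to 22 it was 0.22 (adjusted p = 0.819). The call of the averaged effect was lost in 10 of 22 fits that left out 1 array (adjusted p up to 0.115), at values of 0.27 to 0.35 over the 22. The arrays whose removal ended it were KO LPS replicates 1 and 3, WT LPS replicates 1, 4 and 7, KO saline replicates 1 and 3, and WT saline replicates 1, 2 and 4. The averaged effect was 0.33 (adjusted p = 0.105) without the 4 arrays high in choroid plexus or pituitary genes, 0.45 (adjusted p = 0.00194) within arrays 1 to 11 and 0.35 (adjusted p = 0.594) within arrays 12 to 22.

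Cxcl5, the third Cxcr2 ligand of the set, had a median of 0.024 in KO LPS, against -0.041 in KO saline, and of 0.0075 in WT LPS, against -0.019 in WT saline. Its 22 arrays spanned only -0.14 to 0.15. The averaged LPS effect was 0.034 (SE 0.037, 95% interval -0.042 to 0.11, adjusted p = 0.919, limma), an interval that ends below the estimates of Cxcl1 and Cxcl2. CXC chemokines outside the 8 members and the CXCR3 ligands, namely Cxcl3, Ppbp, Pf4, Cxcl15 and Cxcl17, gave 0 of 5 called in any comparison by limma and 0 with an unadjusted p under 0.05, with averaged LPS effects of -0.03 to 0.05.

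**Figure D2:**
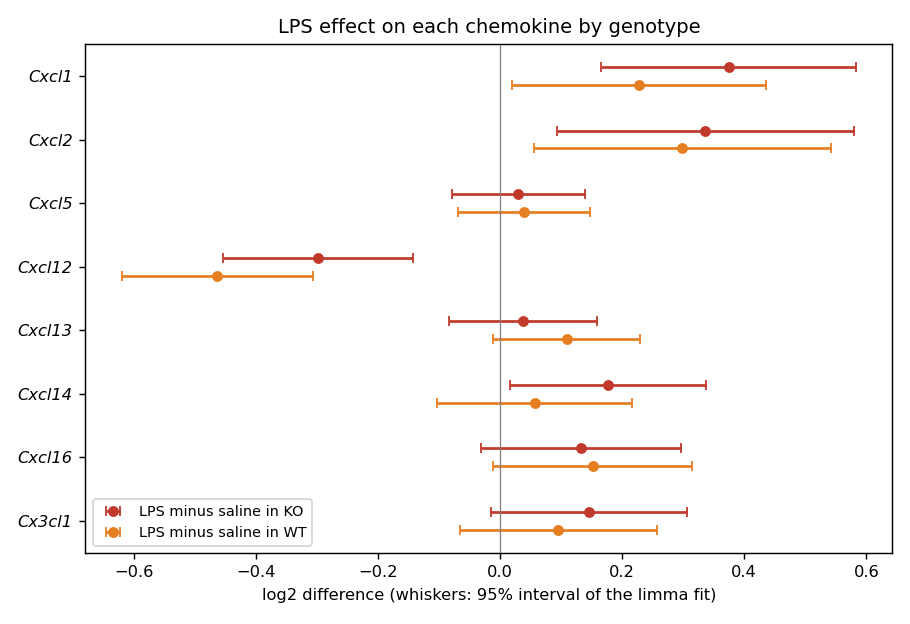
Points give the limma estimate of the LPS effect (LPS minus saline, log2) of each chemokine in KO and in WT, and whiskers its 95% interval. Cxcl1 and Cxcl2 lie right of 0 and Cxcl12 left of 0 in both genotypes, and the KO and WT intervals of each of the 8 chemokines overlap.

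The receptors of these 3 ligands, Cxcr1 and Cxcr2, which neutrophils carry, did not pass the test: the averaged LPS effect was -0.07 (SE 0.04, adjusted p = 0.676, limma) for Cxcr1 and 0.01 (SE 0.02, adjusted p = 0.971, limma) for Cxcr2. Ackr1, the decoy receptor by which vessel walls and red cells bind inflammatory chemokines, rose by 0.19 averaged over genotypes (SE 0.05, adjusted p = 0.0183, limma), with effects of 0.17 in KO and 0.22 in WT that were not called. Of 13 neutrophil markers (S100a8, S100a9, Ly6g, Mpo and others), 0 were called by limma in any comparison, and in the averaged LPS effect 2 had an unadjusted p under 0.05, Retnlg at 0.09 and Mmp9 at -0.15. Such a p was found for 1 in KO and 2 in WT and for 0 in the other comparisons. Their mean over the list lay between -0.10 and 0.051 in KO LPS, -0.011 and 0.070 in WT LPS, -0.055 and 0.054 in KO saline, and -0.018 and 0.049 in WT saline, so the groups overlapped.

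Some genes known to act before or after these chemokines passed the test. Of 7 measured cytokines and receptors that induce neutrophil chemokines, 2 rose in the averaged LPS effect: the receptor subunit Il17ra by 0.27 (SE 0.04) and Il1b, which encodes interleukin-1 beta, by 0.35 (SE 0.09, adjusted p = 0.0256, limma). The other 5, Il1a and Tnf among them, were not called in it. Within WT the LPS effect on Il1a was called (0.23, SE 0.06, adjusted p = 0.0446, limma), and within KO, at 0.07, it was not. The difference between the LPS effects on Il1a in KO and WT, -0.16 (SE 0.08), was not called by limma. Of 7 measured NF-kB target and feedback genes, 6 rose, among them Nfkbia, which encodes the inhibitor of NF-kB, by 1.36 (SE 0.09) and Tnfaip3, another brake on NF-kB, by 0.64 (SE 0.10). Of 7 measured leukocyte adhesion genes, 3 rose: Icam1 by 1.22 (SE 0.09), Vcam1 by 1.21 (SE 0.08) and Sele, which encodes E-selectin, by 0.42 (SE 0.06).

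Cxcl1 and Cxcl2 also varied together among LPS arrays, each array giving 1 value per gene. Over the 14 LPS arrays Pearson's r was 0.812 (permutation p = 0.00048, adjusted p = 0.0134 over the 28 pairs of members) and Spearman's rho 0.820 (permutation p = 0.00063, adjusted p = 0.0176). It was the 1 pair of 28 to pass by Pearson's r. Without the 2 arrays farthest from the median in Cxcl1, r was 0.700 over 12 arrays. Within array numbers 12 to 22 r was 0.912 over 7 LPS arrays, but within numbers 1 to 11 it was 0.0345 over 7, so the relation did not hold in both blocks.

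Over all 22 arrays, treatment and genotype included, the gene outside the members most like Cxcl1 was Csrnp1, a transcription factor gene (r = 0.879, and 0.806 over the 14 LPS arrays). It was followed by Nfkbiz, which encodes a cofactor of NF-kB (0.853 and 0.720), and Fosl2, a Fos family gene (0.836 and 0.730). For Cxcl2 the 3 most alike were Tnfaip3 (0.845 and 0.829), the monocyte attractant Ccl7 (0.830 and 0.730) and Nfkbiz (0.828 and 0.797). These correlations are descriptions over arrays that share the LPS contrast, each picked among the highest over all genes outside the members, and carry no test.

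**Figure D3:**
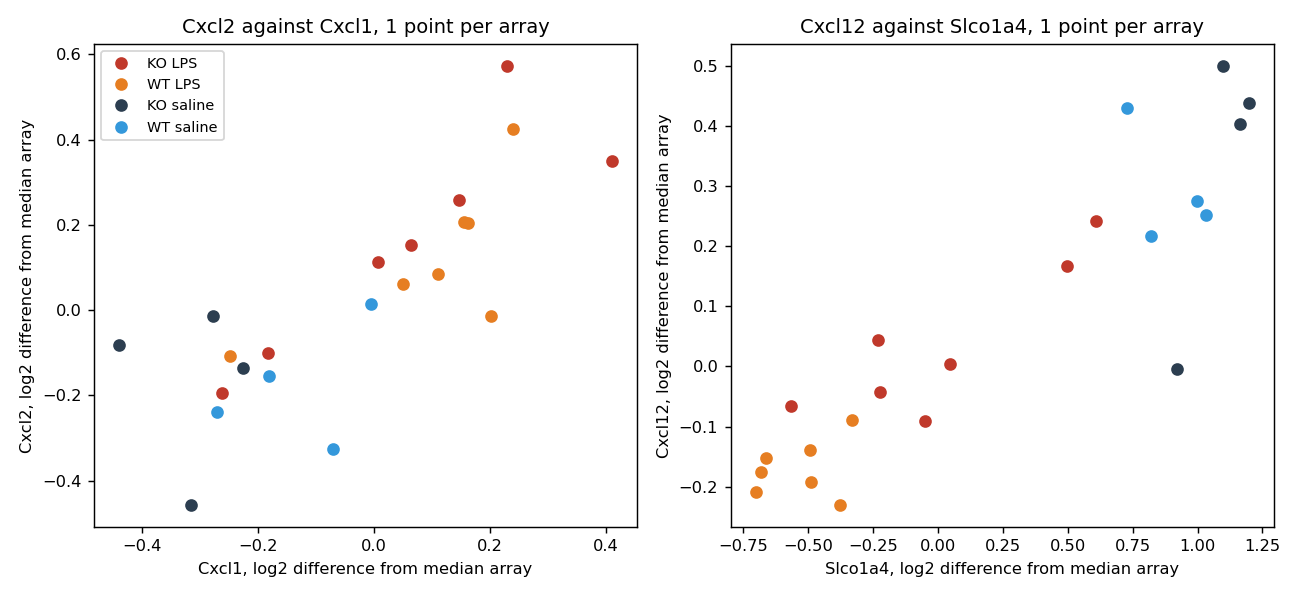
Each point is 1 of the 22 arrays; the left panel sets Cxcl2 against Cxcl1 and the right panel Cxcl12 against the vessel gene Slco1a4, all as log2 differences from the median array. LPS arrays reach high values of both Cxcl1 and Cxcl2. In the right panel the KO LPS arrays lie mostly between the WT LPS arrays, mostly lowest, and the saline arrays, mostly highest. The exceptions in Cxcl12 are KO LPS replicate 4 at 0.24, above WT saline replicate 1 at 0.22, and KO saline replicate 4 at -0.0036, among the KO LPS arrays. A further exception is KO LPS replicate 7 at -0.091, just below WT LPS replicate 3 at -0.089. In Slco1a4, KO LPS replicate 1 at -0.57 lies within the WT LPS arrays, -0.70 to -0.33.

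Among the homeostatic members, Cxcl12 was the 1 called within each genotype, and it was lower after LPS. In KO LPS its values were -0.066, -0.043, 0.043, 0.24, 0.17, 0.0036 and -0.091, against 0.44, 0.40, 0.50 and -0.0036 in KO saline. The 7 LPS arrays lay below 3 of the saline arrays, while KO saline replicate 4 lay among them. The LPS effect in KO was -0.30 (SE 0.08, adjusted p = 0.0473, limma), a fold of 0.813. This call was lost in 24 of 34 alternative fits, including 18 of 22 that left out 1 array, with differences of -0.49 to -0.23 over the 34. The 4 left-out arrays that kept it were KO LPS replicates 4 and 5, KO saline replicate 4 and WT saline replicate 2; without 1 of the other 18 the effect was -0.30 to -0.24. Without KO saline replicate 4 the effect was -0.41 (adjusted p = 0.000308), without KO saline replicate 3 it was -0.24 (adjusted p = 0.313), and without the 4 arrays high in choroid plexus or pituitary genes it was -0.28 (adjusted p = 0.314). It was -0.49 within arrays 1 to 11, where 1 KO saline array remains (adjusted p = 0.0308), and -0.23 within arrays 12 to 22 (adjusted p = 0.682).

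In WT LPS the values of Cxcl12 were -0.18, -0.19, -0.089, -0.15, -0.21, -0.23 and -0.14, against 0.22, 0.43, 0.25 and 0.28 in WT saline. The groups did not overlap, which held in this direction for 0.712% of all genes and in the other for 1.63%; exact permutation over the 330 regroupings gave the smallest p they allow, 0.00303, two-sided. The LPS effect in WT was -0.46 (SE 0.08, 95% interval -0.62 to -0.31, adjusted p = 0.000392, limma), a fold of 0.726. It was -0.46 within array numbers 1 to 11 (adjusted p = 0.000327) and -0.46 within 12 to 22, where 1 saline array remains (adjusted p = 0.625).

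Averaged over genotypes, the LPS effect on Cxcl12 was -0.38 (SE 0.05, 95% interval -0.49 to -0.27, adjusted p = 2.97e-05, limma). Its call held without the 4 arrays high in choroid plexus or pituitary genes (-0.38, adjusted p = 0.00115) and within array numbers 1 to 11 (-0.48, adjusted p = 0.000191), and was lost within 12 to 22 (-0.34, adjusted p = 0.241). Cxcr4, the signalling receptor of Cxcl12, fell by 0.28 in KO (SE 0.07, adjusted p = 0.0358, limma), with KO LPS values of -0.12, -0.038 and 0.17 (lowest, median, highest) against 0.039, 0.38, 0.29 and 0.30 in KO saline. In WT its LPS effect was -0.04 (SE 0.07, not called), and the interaction, which tests the difference of the LPS effects between genotypes, was -0.24 (SE 0.10, not called). Mean Cxcr4 was alike after LPS (-0.028 in KO, -0.0035 in WT) but 0.25 in KO saline and 0.035 in WT saline. That saline difference was 0.22 (SE 0.08, unadjusted p = 0.00986, adjusted p = 0.84, limma). Within arrays 1 to 11 the KO saline array was at 0.039 and the KO LPS arrays at -0.018 and -0.038. Ackr3, the scavenging receptor of Cxcl12, had an averaged LPS effect of 0.13 (SE 0.05, adjusted p = 0.397, limma).

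The fall of Cxcl12 ran beside that of vessel genes. Of 9 measured endothelial markers, 6 fell in the averaged LPS effect: Cldn5, a tight junction gene, by 1.11 (SE 0.08), Slco1a4, a blood-brain barrier transporter gene, by 1.26 (SE 0.11), the receptor genes Tek by 0.69 (SE 0.06), Kdr by 0.54 (SE 0.05) and Flt1 by 0.20 (SE 0.03), and Pecam1 by 0.14 (SE 0.04). Cdh5 (0.22), Slc2a1 (0.21) and Esam (-0.02) were not called. The mean over the 9 markers lay between -0.086 and 0.12 in KO LPS, -0.19 and -0.073 in WT LPS, 0.26 and 0.43 in KO saline, and 0.21 and 0.35 in WT saline. The part of these genes in the fall of Cxcl12 was not tested, and in whole tissue fewer cells of a type and less RNA per cell cannot be told apart.

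Among genes outside the members, Cxcl12 was most like Mpzl1, a membrane glycoprotein gene, over the 22 arrays (r = 0.922, and 0.960 over the 14 LPS arrays). Next came Slco1a4 (0.904 and 0.895) and Fzd6, a Wnt receptor gene (0.899 and 0.774). KO saline replicate 4, which stood apart in Cxcl12, was at 0.92 in Slco1a4 and 1.04 in Cldn5, where the other KO saline arrays had 1.10 to 1.20 and 0.81 to 1.10. It was thus also the lowest KO saline array in Slco1a4 but lay within the range of its group in Cldn5.

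The other homeostatic members were not called. Cxcl13 had -0.15, -0.0013 and 0.17 (lowest, median, highest) in KO LPS, against -0.13, 0.11, -0.15 and -0.0075 in KO saline. In WT LPS it had -0.050, 0.055 and 0.18, against -0.072, 0.020, -0.015 and -0.085 in WT saline. The averaged LPS effect was 0.07 (SE 0.04, adjusted p = 0.683, limma), and the effects were 0.04 in KO and 0.11 in WT. Cxcr5, its receptor, was at 0.02 (SE 0.03, adjusted p = 0.956, limma).

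Cxcl14 spread unevenly between groups. It had -0.075, -0.0014 and 0.051 (lowest, median, highest) in KO LPS, against -0.11, -0.015, -0.46 and -0.17 in KO saline, while WT LPS had -0.20, 0.051 and 0.23, against 0.013, 0.14, 0.0075 and -0.14 in WT saline. The averaged effect was 0.12 (SE 0.05, adjusted p = 0.515, limma), with 0.18 in KO (adjusted p = 0.711) and 0.06 in WT (not called). Its difference between KO saline and WT saline, -0.19 (SE 0.09, adjusted p = 0.84, limma), was not called.

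Cxcl16 and Cx3cl1, the membrane-anchored members, were not called in any comparison. Cxcl16 had -0.18, -0.0012 and 0.31 (lowest, median, highest) in KO LPS, against -0.24, -0.20, -0.053 and -0.033 in KO saline, and 0.0012, 0.062 and 0.19 in WT LPS, against -0.28, -0.027, 0.15 and -0.16 in WT saline. Its averaged LPS effect was 0.14 (SE 0.06, adjusted p = 0.321, limma). Cxcr6, the receptor of Cxcl16, was at -0.01 (SE 0.04, adjusted p = 0.990, limma).

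Cx3cl1 had -0.20, 0.026 and 0.11 (lowest, median, highest) in KO LPS, against 0.074, -0.043, -0.33 and -0.21 in KO saline, and -0.075, 0.068 and 0.24 in WT LPS, against -0.047, 0.16, -0.14 and -0.16 in WT saline. The averaged effect was 0.12 (SE 0.05, adjusted p = 0.479, limma). Cx3cl1 was the 1 member that differed between the 2 blocks of array numbers, at -0.17 for arrays 12 to 22 minus arrays 1 to 11 (SE 0.05, adjusted p = 0.0128, limma). Of the enzymes that shed both proteins or trim Cxcl12, namely Adam10, Adam17 and Dpp4, 0 of 3 were called in any comparison by limma, and 0 had an unadjusted p under 0.05.

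Cx3cr1, the microglial receptor of Cx3cl1, changed where its ligand did not pass the test. In KO LPS it had -0.20, 0.023 and 0.26 (lowest, median, highest), against 0.12, 0.35, 0.47 and 0.19 in KO saline, with overlap. It had -0.41, -0.26 and -0.19 in WT LPS, against -0.044, 0.21, 0.33 and 0.25 in WT saline, and the groups did not overlap. Such a separation was found in this direction for 0.712% of all genes and in the other for 1.63%. The LPS effect on Cx3cr1 was -0.25 in KO (SE 0.08, adjusted p = 0.273, limma) and -0.46 in WT (SE 0.08, adjusted p = 0.00123, limma), and its interaction was 0.21 (SE 0.12, not called). Of the 9 measured microglial markers it was the 1 called in the averaged effect, at -0.35 (SE 0.06, adjusted p = 0.000265, limma). In that effect 4 of the 9, Cx3cr1 included, had an unadjusted p under 0.05 by limma, and 2 had a positive difference. The mean over the 9 markers, Cx3cr1 included, lay between -0.12 and -0.015 in WT LPS, below its -0.0066 to 0.10 in WT saline. In KO LPS it lay between -0.054 and 0.058, overlapping its 8.9e-05 to 0.097 in KO saline. A mean without Cx3cr1 was not taken, so these means do not show a fall of the other markers.

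Between the genotypes after LPS, 0 of the 8 members were called by limma, where 0.0401% of all genes were. Cxcl12, 1 member of the 8, had an unadjusted p under 0.05 by limma and by exact permutation. At least 2029 of the 19935 genes had such a p by limma, and Cxcl12 ranked 243 by smallest p. Its 7 KO LPS arrays lay at -0.091 to 0.24 and its 7 WT LPS arrays at -0.23 to -0.089, with 6 of the KO arrays above the highest WT array and the lowest KO array just below it. All 7 KO LPS arrays above all 7 WT LPS arrays, which Cxcl12 did not reach, were found for 0.0752% of all genes. The difference was 0.21 (SE 0.06, 95% interval 0.07 to 0.34, unadjusted p = 0.00399, adjusted p = 0.327, limma), and exact permutation over 3432 regroupings gave p = 0.00117, two-sided and unadjusted. With array block as a term it was 0.20 (adjusted p = 0.829, limma), within arrays 1 to 11 it was 0.11 and within arrays 12 to 22 it was 0.26. With array weights it passed at an adjusted p of 0.0499 (limma), and with 1 array left out it was 0.17 to 0.23. KO LPS replicates 4 and 5 were highest of their group in Cxcl12 (0.24 and 0.17), Slco1a4 (0.61 and 0.50) and Cx3cr1 (0.26 and 0.22). The same held for Tek and Cldn5. Both were lowest of their group in Cxcl1, Cxcl2 and the CXCR3 ligand Cxcl10 (-0.64 and -0.45). The genotype difference of Cxcl12 without both arrays was not tested.

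**Figure D4:**
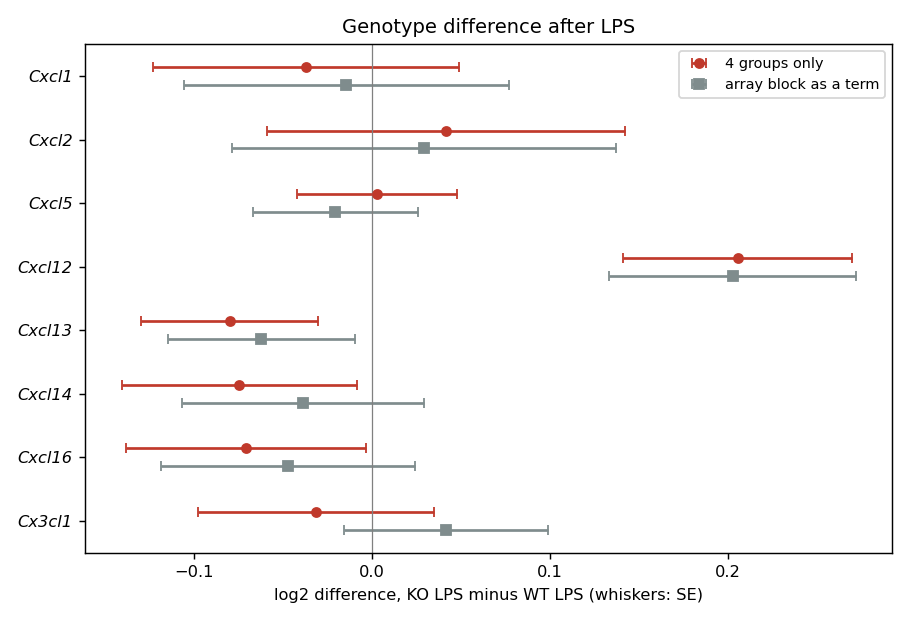
Each chemokine's difference between KO LPS and WT LPS (log2, KO minus WT) is drawn with its SE, from the fit of the 4 groups and from the fit with array block as a term. Cxcl12 lies at 0.21 and 0.20, and the other 7 chemokines lie between -0.08 and 0.04.

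The other 7 members differed between KO LPS and WT LPS by -0.08 to 0.04. For Cxcl1 the difference was -0.04 (95% interval -0.21 to 0.14), for Cxcl2 it was 0.04 (-0.17 to 0.25) and for Cxcl5 it was 0.0029 (-0.090 to 0.095), with adjusted p from 0.898 to 0.989. These intervals reach -0.21 for Cxcl1 and 0.25 for Cxcl2, beside averaged LPS effects of 0.30 and 0.32. The members' median was -0.03, beside -0.0024 over all genes. Among the receptors, Cx3cr1 stood highest at 0.31 (SE 0.07, adjusted p = 0.143, limma), its KO LPS values being -0.20 to 0.26 and its WT LPS values -0.41 to -0.19.

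Of the 9 vessel markers, 0 were called between KO LPS and WT LPS by limma; 6 had a positive difference, as Cxcl12 did, and 6 had an unadjusted p under 0.05, with Slco1a4 at 0.55 (SE 0.13, adjusted p = 0.166, limma), Pecam1 at 0.23, Cldn5 at 0.24 and Tek at 0.22, and Cdh5 at -0.18 and Esam at -0.11. Their part in the Cxcl12 difference was not tested.

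After saline, 0 of the 8 members were called between KO and WT by limma, where 0.00502% of all genes were. Cxcl14 alone had an unadjusted p under 0.05 by limma, and it ranked 709 of the 19935 genes by smallest p. By exact permutation 0 members had such a p, and the smallest p for 4 against 4 arrays is 0.0286. The differences ran from -0.19 for Cxcl14 to 0.04 for Cxcl12. Cxcl1 was at -0.18 (95% interval -0.42 to 0.05, adjusted p = 0.84, limma), and 3 of its 4 KO saline arrays lay below the lowest WT saline array. All 4 below, which Cxcl1 did not reach, was found for 1.19% of all genes. The share of genes with 3 of 4 below was not counted.

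The interaction called 0 of 8 members by limma, as it did 0% of all genes, and 0 had an unadjusted p under 0.05. It was 0.16 for Cxcl12 (SE 0.11, 95% interval -0.06 to 0.39), 0.15 for Cxcl1 (-0.15 to 0.44) and 0.04 for Cxcl2 (-0.31 to 0.38). A smaller fall of Cxcl12 in KO than in WT was therefore not shown by the test of that difference.

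The shifts of the 8 members were smaller than those of the called chemokines of 2 other groups. The 3 CXCR3 ligands, which attract T cells, all rose in the averaged LPS effect, Cxcl10 by 4.65 (SE 0.14), Cxcl11 by 0.98 (SE 0.09) and Cxcl9 by 0.47 (SE 0.11, adjusted p = 0.0113, limma). Of 17 CC chemokines 6 rose, among them the monocyte attractants Ccl2 by 1.25 (SE 0.24) and Ccl12 by 1.02 (SE 0.08), Ccl3 by 0.67 (SE 0.12) and Ccl9 by 0.42 (SE 0.06); the other 11 CC chemokines were not called, at -0.06 to 0.25. The median over the 17 CC chemokines was 0.084, beside 0.12 over the 8 members. The smallest of these called increases, 0.42 for Ccl9, exceeded the 0.32 of Cxcl2. Differences between genes on an array also depend on how each probe set responds, and the sizes were not tested against each other.

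**Figure D5:**
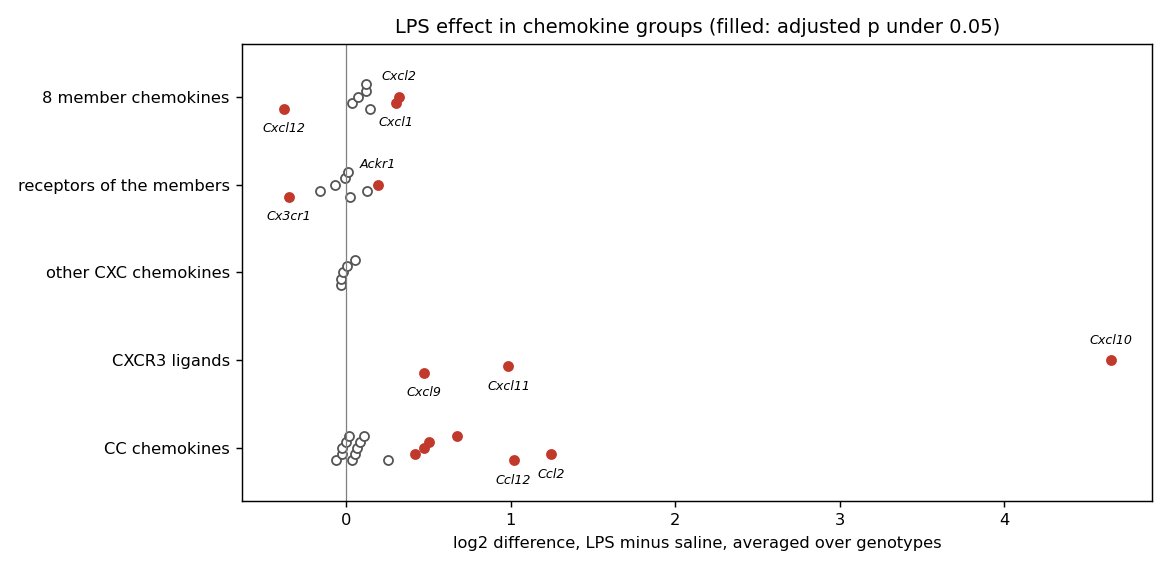
Each point is 1 gene's LPS effect averaged over genotypes (log2, LPS minus saline), in rows for the 8 chemokines described here, their receptors and 3 other chemokine groups; filled points passed an adjusted p under 0.05. The 8 chemokines lie between -0.38 and 0.32, while Cxcl10 lies at 4.65.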

How the data were processed

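Expression was measured in 22 hypothalamus arrays in 4 groups taken from the labels. Per the submitters' processing notes, RMA was used, without a version; no genome build is given in the sources used here. The authors deposited log2 values for 28815 probe sets, each centred on its median over the arrays (largest median 7.02e-07), and the base of the log2 values was taken as 2 because 99.9% of 619799 values of 0.001 to 0.5 in size were whole multiples, within 0.03, of the single-precision step of levels between 4 and 8.

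Names came from the platform annotation, with symbols updated by gene ID (21689 of 21780 with 1 symbol matched; 1605 with several and 5430 with none were left out) and averaged per gene (998 genes had several). Differences were tested with limma 3.58.1 (R 4.3.3) on all 22 arrays with 1 mean per group, two-sided, with Benjamini-Hochberg adjustment over 19935 genes and a call at 0.05; the fit was first tested on simulated data with planted changes. Python 3.11.15 with scipy 1.17.1 ran the permutation tests (100000 resamples for correlations). The number of arrays limits the precision. No array was paired with another. The text names the 8 members, every measured receptor and CXCR3 ligand, called genes of the other lists (up to 4 by smallest p) and Il6. It also names the 3 genes outside the members most like each called member. Markers named beyond that were chosen after their values were seen. The members and lists were chosen with earlier results of these data known. Alternatives covered array number, normalization, array weights, moderation, probe sets and left-out arrays.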

Additional observations from a re-analysis of the deposited data

Results flagged for a closer look

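In 2 of the 32 sets of values (8 members in 4 groups), 1 array stood apart from the rest of its group by Dixon's criterion, and chance gives about 1 in 20. Cxcl1 in WT LPS replicate 6 was lowest at -0.2486, where the next array was at 0.049 and the highest at 0.24. Cxcl5 in KO saline replicate 4 was highest at 0.0859, where the next array was at -0.037 and the lowest at -0.052.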

How the results depend on the processing

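Over 34 alternative fits, 1494 of 1616 values of single members kept their direction and side of the threshold, 41 lost a call, 6 gained one and 75 changed sign, none of these being called either way. No paired analysis was possible because array numbers run from 1 to 22 and groups share none. Arrays have no depth, and a group within a block of array numbers can be 1 array, whose spread is then that of the other groups. The cause of each change below was not tested, apart from smaller samples where arrays were left out.

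Of the 8 members, LPS against saline in KO called 1; it called 2 within arrays 1 to 11, 3 by exact permutation at an unadjusted p under 0.05, 0 to 2 with 1 array left out, and 0 within arrays 12 to 22, with only the groups compared, with arrays re-centred or quantile-normalized again, with each probe set on its own, and without the 4 arrays high in choroid plexus or pituitary genes. In WT it called 1, with 2 within arrays 1 to 11, 0 within arrays 12 to 22, 4 by exact permutation and 1 to 1 with 1 array left out. Averaged, it called 3, with 0 within arrays 12 to 22, 1 without the 4 arrays and 2 to 3 with 1 array left out. KO LPS against WT LPS called 0, with 1 under array weights and 1 by exact permutation.

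Sign changes in KO LPS minus WT LPS were Cxcl5 at -0.021 and Cx3cl1 at 0.042 with array block as a term; Cxcl13 at 0.021, Cxcl16 at 0.007 and Cx3cl1 at 0.008 within arrays 1 to 11; Cxcl1 at 0.044, Cxcl2 at -0.010, Cxcl5 at -0.091 and Cx3cl1 at 0.056 within arrays 12 to 22; and Cxcl2 at -0.012, Cxcl5 at -0.014 and Cx3cl1 at 0.037 without the 4 arrays. With 1 array left out, Cxcl1 spanned -0.096 to 0.017, Cxcl2 -0.026 to 0.101, Cxcl5 -0.023 to 0.028 and Cx3cl1 -0.052 to 0.005.

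In KO saline minus WT saline they were Cxcl2 at -0.010, Cxcl5 at -0.015, Cxcl13 at 0.012 and Cx3cl1 at 0.003 with array block as a term; Cxcl2 at -0.331, Cxcl5 at -0.009 and Cx3cl1 at 0.083 within arrays 1 to 11; Cxcl5 at -0.013, Cxcl13 at 0.067 and Cxcl16 at 0.069 within arrays 12 to 22; Cxcl2 at -0.070 and Cxcl12 at -0.007 without the 4 arrays; and Cxcl13 at 0.014 under array weights. With 1 array left out, Cxcl2 spanned -0.049 to 0.099, Cxcl5 -0.020 to 0.026, Cxcl12 -0.014 to 0.154, Cxcl13 -0.061 to 0.027 and Cxcl16 -0.118 to 0.026.

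In the LPS effect in KO it was Cxcl13 at -0.033 within arrays 12 to 22 and -0.014 under array weights. In the interaction they were Cxcl5 at 0.054, Cxcl12 at -0.031, Cxcl13 at 0.132, Cxcl16 at 0.194 and Cx3cl1 at -0.075 within arrays 1 to 11, Cxcl2 at -0.259 within arrays 12 to 22, Cxcl5 at 0.015 under array weights and Cxcl16 at 0.011 without the 4 arrays. With 1 array left out, Cxcl2 spanned -0.057 to 0.098, Cxcl5 -0.035 to 0.023, Cxcl16 -0.096 to 0.048 and Cx3cl1 -0.018 to 0.118.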
